A study of Mus musculus with 3 samples.

Results

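The cells described here are mouse blood B cells in which at least 1 transcript of Bhlhe41 or Zcwpw1 was counted. They were taken from cluster 1 of the authors' own clustering of each blood table, which held the B cells, and only cells with a clear sample tag were used. The rule found 230 cells among 2137 clear cells of cluster 1 and 7713 clear blood cells, out of 16328 deposited cells of brain and blood. Both genes were chosen from these same data, as were the markers S100a6 and Ighm, so the levels of these 4 genes are given as a description of the cells.

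Bhlhe41 is a basic helix-loop-helix repressor that binds E-box DNA, and mice that lack it together with its relative Bhlhe40 have few B-1a cells. B-1 cells are innate-like B cells of the body cavities and spleen that renew themselves, carry much surface IgM and little IgD, and secrete natural antibody. Follicular B cells, the common recirculating type of blood, carry IgD, CD23 (Fcer2a) and CD21 (Cr2). Zcwpw1 is a reader of histone methylation best known from meiosis.

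The series measured RNA together with 35 antibody tags per cell in 1 pool of 8 samples, with the 10x Genomics 3′ v3 assay. Whole blood of female mice aged 2 to 3 months on a C57Bl/6 background was lysed of red cells and stained, each sample with its own hashing antibody. The series used Cx3cr1+/-, Cx3cr1-/-, CCR2+/- and CCR2-/- mice, but the labels do not say which gene the terms Het and Hom of the 4 blood samples refer to. The 4 blood samples were naive Het, naive Hom, mets Het and mets Hom, where mets means E0771 cells injected into the carotid about 2 weeks earlier. E0771 is a mouse mammary tumour line. Each condition was 1 sample, and the labels do not say how many animals it held.

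The short DNA tags that gave each cell its sample, and the tag of the antibody to CD45R/B220 behind a gate used below, were the following 15-base sequences.
M-HTO-5, naive Het: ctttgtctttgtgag
M-HTO-7, naive Hom: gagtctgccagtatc
M-HTO-6, mets Het: tatgctgccacggta
M-HTO-8, mets Hom: tatagaacgccaggc
CD45R/B220: cctacacctcataat

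The median depth of all clear cells lay between 3928.5 and 4709 raw UMIs (unique molecules) in the 4 blood samples. Of 13757 barcodes, 2401 stood in more than 1 of the 3 deposited tables, and those cells were left out. The Bhlhe41/Zcwpw1-positive cells were sequenced more deeply than the other cells of cluster 1 in 4 of 4 samples. Their median was 6132 raw UMIs against 4591.5 in naive Het, 6106 against 4809 in naive Hom, 7778 against 4227.5 in mets Het and 7994 against 4056.5 in mets Hom. The exact sign-flip test over 4 samples gave p = 0.13, two-sided, the smallest it can give. A deeper cell is more likely to show a rare transcript, and the levels below are per 10000 of the authors' counts, which had been corrected for depth within each table. No doublet caller was run, and doublets within a sample were not removed here.

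The positive cells numbered 44 in naive Het, 76 in naive Hom, 55 in mets Het and 55 in mets Hom. They made up 10.1% of the clear cluster 1 cells of naive Het (exact Clopper-Pearson 95% interval 7.43 to 13.3), 9.42% of naive Hom (7.49 to 11.6), 9.60% of mets Het (7.31 to 12.3) and 17.1% of mets Hom (13.2 to 21.7). The share in mets Hom was the highest, and its interval overlapped with that of naive Het at the edge. Of all clear cells of a sample they made up 2.56%, 3.84%, 2.65% and 2.83% in the same order, so on that denominator mets Hom was not the highest. Cluster 1 itself was 25.4%, 40.8%, 27.6% and 16.5% of the clear cells. All intervals cover counting error only.

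**Figure D1:**
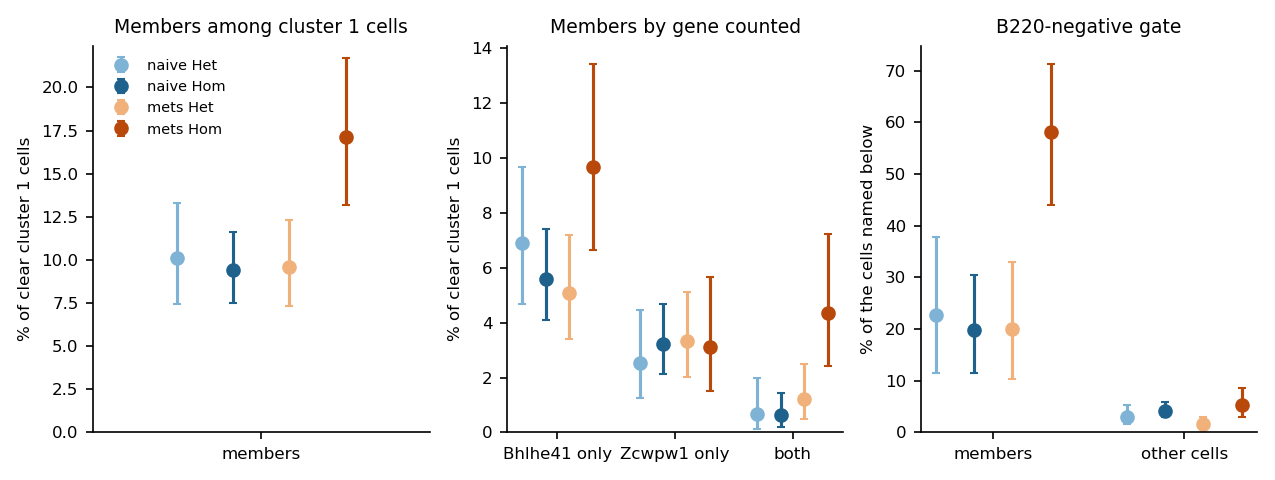
Shares of cells in the 4 hashed blood samples, in percent, with exact 95% binomial intervals. The left panel gives Bhlhe41/Zcwpw1-positive cells (members) as a share of clear cluster 1 cells, the middle panel splits them by the gene counted, and the right panel gives the share in the B220-negative gate, where mets Hom stood at 58.2% of members and the other 3 samples between 19.7% and 22.7%.

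Most positive cells rested on very few transcripts. Bhlhe41 alone was counted in 135 cells, Zcwpw1 alone in 66 and both in 29. By sample, in the order naive Het, naive Hom, mets Het and mets Hom, cells with both genes numbered 3, 5, 7 and 14. Bhlhe41 stood at exactly 1 corrected count in 107 cells and at 2 or more in 57, with 5 as the highest. Zcwpw1 stood at 1 count in 75 cells and at 2 or more in 20, with 8 as the highest.

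Zcwpw1 was counted in a larger share of the cells with Bhlhe41 than of those without it. It was found in 9.09% of Bhlhe41-positive and 2.73% of Bhlhe41-negative cluster 1 cells of naive Het, and in 10.0% against 3.43% in naive Hom. In mets Het the shares were 19.4% and 3.54%, and in mets Hom 31.1% and 3.62%. The Bhlhe41-positive share was the higher in 4 of 4 samples, which is a description, since both genes belong to the rule. Depth differed between these classes too. The median raw depth was 11941 UMIs in cells with both genes, 7326 with Bhlhe41 alone, 4735 with Zcwpw1 alone and 4516 with neither.

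Both genes were also counted outside the B cell cluster, and how much of that is free RNA was not tested. In cluster 0, which held the neutrophils, Bhlhe41 was counted in 0.768% of naive and 0.373% of mets cells, at median depths of 2963.5 and 3185 UMIs, against 6.68% and 9.06% of cluster 1 at 4810 and 4258.5 UMIs. For Zcwpw1 the neutrophil shares were 0.256% and 0.622% against 3.62% and 5.59% in cluster 1. In the T cell cluster Zcwpw1 was counted in 4.59% of naive cells at 7762 UMIs and 3.35% of mets cells at 7614 UMIs. The Zcwpw1 share of cluster 1 was thus near that of the T cell cluster, while Bhlhe41 was counted in 1.67% and 1.49% of T cell cluster cells.

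Bhlhe41/Zcwpw1-positive cells were compared with the 1907 other clear cells of cluster 1, with counts summed per sample, the sample as a block in limma and the rule genes left out. Of 10249 genes tested, 178 were higher and 143 lower at an adjusted p under 0.05, or 3.13% of genes (1.74% higher, 1.4% lower). Of these, 169 and 134 went the same way in all 4 samples. The median log2 difference over all genes was 0.01. Without mets Hom, 101 genes were higher and 61 lower. The hashed samples shared 1 pool, so the limma p-values measure a spread between hashed samples, not between libraries or mice. Limma also draws the spread of each gene towards that of all genes tested. A gene whose 4 differences vary widely can therefore still have a small p.

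The higher genes were led by small calcium-binding, cytoskeletal and membrane-linked proteins. S100a6, which encodes a calcium-binding protein, stood at 9.499 corrected counts per 10000 in positive cells of naive Het, 14.1 in naive Hom, 14.98 in mets Het and 34.0 in mets Hom, against 1.56, 1.72, 1.62 and 3.17 in the other cells. The positive cells were higher in each sample, and mets Hom was the highest in both classes. The mean log2 difference was 2.55 (SE 0.10).

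Plac8, which encodes a small cysteine-rich protein, stood at 11.7, 10.1, 9.18 and 13.6 per 10000 in the positive cells of naive Het, naive Hom, mets Het and mets Hom, and at 4.25, 4.72, 2.71 and 4.003 in the others. The groups did not overlap, and the log2 difference was 1.31 (SE 0.09, adjusted p = 5.2e-17). Ahnak, a large membrane scaffold protein, stood at 1.60, 2.96, 1.67 and 4.45 against 0.472, 0.620, 0.445 and 0.580 per 10000 (log2 difference 1.20, SE 0.09, adjusted p = 5.2e-15). Vim, the intermediate filament protein vimentin, stood at 9.82, 10.9, 5.99 and 13.4 against 4.84, 4.52, 3.07 and 4.04 (log2 difference 1.07, SE 0.09, adjusted p = 4e-13). For all 3 genes the lowest positive sample was above the highest other sample. They were named for their high rank, and how many of all genes had no overlap was not counted.

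Of the 20 genes of the fixed list of S100, annexin and actin-binding genes, all tested, 11 were higher and 1, the actin-sequestering Tmsb10, was lower, with a median log2 difference of 0.27. S100a6 and others on this list had been seen in these data before the list was made. Besides those above, Crip1, a small LIM protein, was higher by 0.98, S100a4 by 0.99, Lgals1 (galectin-1) by 0.85, Anxa2 (annexin A2) by 0.68 and Capg, an actin-capping protein, by 0.52 on the log2 scale. The remaining genes that the ranking named as higher were Tagln2 (0.92), an actin-binding protein, Ass1 (0.88), which makes argininosuccinate from citrulline, Ly6a (0.84), the surface antigen Sca-1, Pdlim1 (0.76), a LIM protein of the cytoskeleton, and Rassf4 (0.74), all as log2 differences with adjusted p from 1.25e-08 to 1.6e-13. Without mets Hom, S100a10 (0.33, adjusted p = 0.052), Crip2 (0.18, 0.078), Lsp1 (0.24, 0.20) and Tmsb10 (-0.16, 0.43) of the list were not called. Mets Hom had the largest difference of the 4 samples for each of the 12 genes named as higher.

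**Figure D2:**
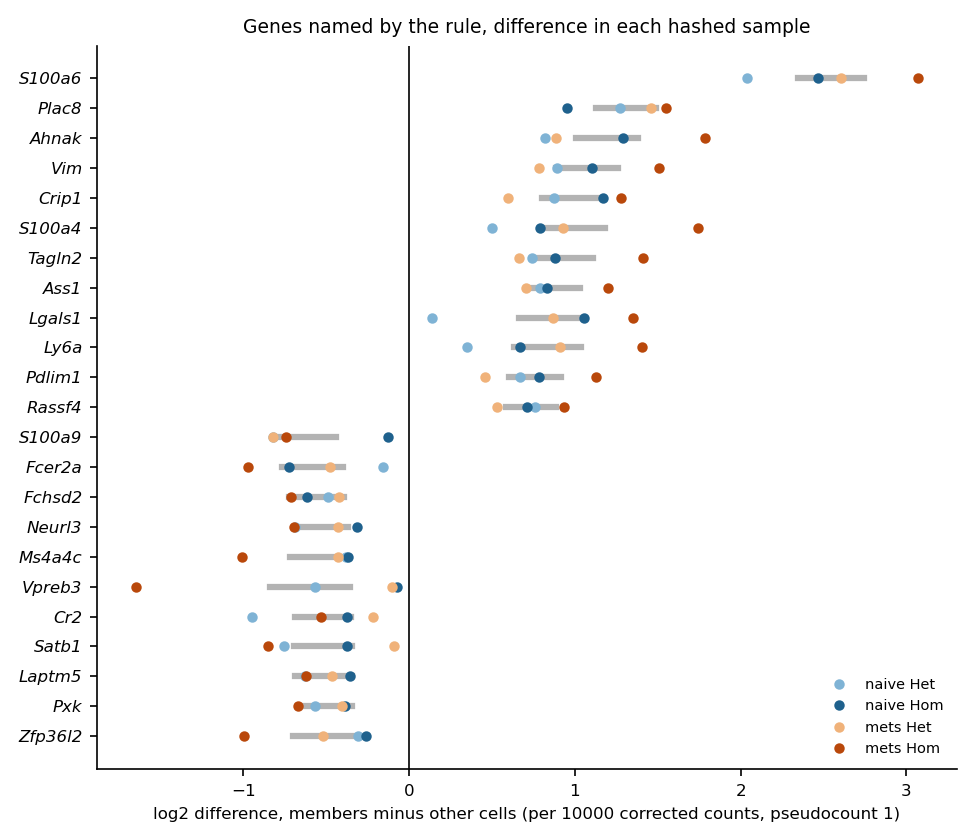
Log2 difference between Bhlhe41/Zcwpw1-positive cells and the other cells of cluster 1 in each hashed sample (points), with limma's 95% interval of the mean (grey bars), for the 12 genes named as higher and 11 named as lower. Genes are ranked by the interval bound; S100a6 lay between 2.04 and 3.07 in the 4 samples and Cr2 between -0.22 and -0.95.

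Among genes known from B-1 cells, 14 of the 17 on the fixed list had enough counts to be tested. Of these 6 were higher and none lower by limma (8 and 0 at an unadjusted p under 0.05), with a median log2 difference of 0.19. The 6 were Zbtb32, Plscr1, Cd9, Il5ra, Atxn1 and Fcrl5. Zbtb32, a zinc finger repressor, stood at 0.548, 0.768, 0.303 and 0.679 per 10000 in positive cells of naive Het, naive Hom, mets Het and mets Hom, and at 0.032, 0.043, 0.009 and 0.042 in the others. It was higher in each sample (log2 difference 0.60, SE 0.07, limma adjusted p = 2.6e-09). Cd9, a tetraspanin also found on marginal zone B cells, stood at 0.868, 0.556, 0.455 and 1.02 against 0.301, 0.353, 0.315 and 0.294 (log2 difference 0.38, SE 0.08, adjusted p = 0.00061). Il5ra, the receptor for the interleukin that sustains B-1 cells, differed by 0.26 (SE 0.07, adjusted p = 0.012), and Plscr1 by 0.42. Without mets Hom, Atxn1 was not called (0.18, adjusted p = 0.11).

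RNA of the surface proteins used to sort B-1 cells was scarce, and the proteins themselves were not compared here. Cd5 was too rare to test: it stood at 0.046, 0.106, 0.076 and 0.113 per 10000 in positive cells and at 0, 0.006, 0.004 and 0.050 in the others. These levels were higher in positive cells of each sample, but came from only 1, 4, 2 and 3 positive cells in naive Het, naive Hom, mets Het and mets Hom. After thinning to 3000 counts, Cd5 was counted in 1 of 44, 1 of 76, 2 of 55 and 0 of 55 positive cells. Among the others it was then counted in 0 of 392, 2 of 731, 1 of 518 and 4 of 266. The share in mets Hom was thus lower in positive cells after thinning. In limma Spn (CD43) differed by 0.08 (SE 0.05, adjusted p = 0.56) and Itgam (CD11b) by 0.04 (SE 0.05, adjusted p = 0.80). In naive Het, naive Hom, mets Het and mets Hom, Spn was counted in 11.4%, 7.89%, 10.9% and 3.64% of positive cells. In the other cells it was counted in 6.38%, 3.15%, 3.67% and 6.39%. Itgam was counted in 9.09%, 3.95%, 7.27% and 5.45% against 3.83%, 5.06%, 4.63% and 6.02%. At such low counts the pseudocount of 1 per 10000 shrinks a log2 difference.

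Immunoglobulin genes differed by chain. Ighm, the IgM heavy chain, stood at 45.9, 52.7, 46.2 and 57.8 per 10000 in positive cells of naive Het, naive Hom, mets Het and mets Hom and at 41.1, 41.0, 31.6 and 37.1 in the others, higher in each sample. Ighd, the IgD heavy chain, stood at 6.39, 6.04, 11.2 and 5.93 against 10.5, 10.4, 14.2 and 13.2. Its log2 difference was -0.67 (SE 0.09, adjusted p = 4.5e-07), and the positive cells were lower in every sample, although mets Het was above both naive samples of the other cells. Zfp318, which is needed to make IgD transcripts, was lower by 0.40 (adjusted p = 0.0019), and the kappa constant gene Igkc was not called (log2 difference -0.15, adjusted p = 0.20). Igha was lower over all samples, but its differences ran from -2.29 in naive Hom to 0.94 in naive Het. Mzb1, a chaperone of IgM secretion, was higher by 0.66 (SE 0.09, adjusted p = 4.5e-07), while Jchain was lower (-0.25) with differences of both signs. Without mets Hom, Zfp318 (-0.26, adjusted p = 0.15), Igha (-0.42, 0.44) and Jchain (-0.20, 0.28) were not called.

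V gene transcripts were scarce in this 3′ assay. A kappa V gene with at least 2 counts was found in 6 of 120 naive and 7 of 110 mets positive cells. A gene from the fixed list of V genes reported in B-1 cells led in 0 of those 6 naive cells and in 2 of the 89 other naive cells with a kappa V gene. In mets it led in 2 of the 7 positive cells, both with Igkv14-126, and in 0 of 46 other cells. A heavy V gene with at least 2 counts was found in 3 naive and 4 mets positive cells, with none from the list, and the list gave 1 of 36 and 0 of 27 such other cells. These numbers are too small for a comparison.

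**Figure D3:**
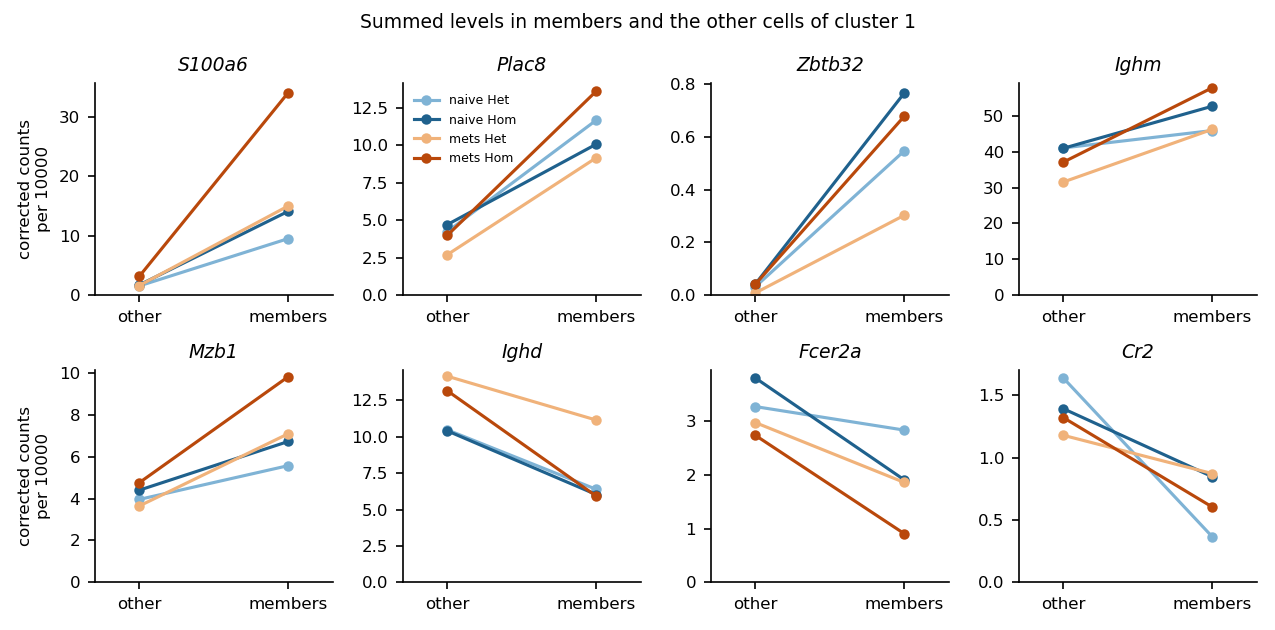
Levels of 8 genes in the 4 hashed samples, as corrected counts per 10000 summed over the other cells of cluster 1 (left points) and the Bhlhe41/Zcwpw1-positive cells (right points). S100a6, Plac8, Zbtb32, Ighm and Mzb1 were higher in the positive cells of each sample, and Ighd, Fcer2a and Cr2 were lower in each.

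Genes of follicular B cells were lower. All 15 of the fixed list were tested, 7 were lower and none higher by limma (11 and 1 at an unadjusted p under 0.05), and the median log2 difference was -0.28. Fcer2a, the low-affinity IgE receptor CD23, stood at 2.83, 1.91, 1.86 and 0.906 per 10000 in positive cells of naive Het, naive Hom, mets Het and mets Hom, against 3.27, 3.799, 2.97 and 2.73 (log2 difference -0.58, SE 0.09, adjusted p = 1e-05). Naive Het positive cells overlapped with the others here. Cr2, the complement receptor CD21, stood at 0.365, 0.847, 0.872 and 0.604 against 1.64, 1.39, 1.18 and 1.32, lower in each sample (log2 difference -0.52, SE 0.08, limma adjusted p = 1.5e-05). Satb1, a chromatin organiser, and Bach2, a repressor of plasma cell fate, were also lower, as were Ighd and Zfp318. Without mets Hom, Bach2 (-0.18, adjusted p = 0.40) and Zfp318 (-0.26, 0.15) were not called.

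Other genes named as lower were S100a9, Fchsd2, Neurl3, Ms4a4c, Vpreb3, Laptm5, Pxk and Zfp36l2, with log2 differences from -0.51 to -0.63. S100a9 is a neutrophil gene, and it and S100a8 were the 2 of 7 tested neutrophil genes that were lower. Vpreb3, an endoplasmic reticulum protein of B cell precursors, was lower by 0.60 on the log2 scale, but its differences were -0.57, -0.07, -0.10 and -1.65, and without mets Hom it was -0.25 (adjusted p = 0.24).

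Antigen presentation genes were also lower. Of 10 tested genes of MHC class II and its pathway, 6 were lower and none higher by limma (8 and 0 at an unadjusted p under 0.05; median log2 difference -0.32): the class II chains H2-Aa and H2-Ab1, the invariant chain Cd74, the peptide-loading genes H2-DMb1 and H2-Oa, and the transactivator Ciita. Cd74 stood at 138.8, 139.5, 168.1 and 124.5 per 10000 in positive cells of naive Het, naive Hom, mets Het and mets Hom and at 179.3, 173.4, 185.8 and 180.9 in the others (log2 difference -0.34, SE 0.06, adjusted p = 4.5e-05). The positive cells were lower in each sample. Of 12 immediate early genes, 5 were lower and none higher (Junb, Egr1, Ier2, Btg2 and Zfp36). Without mets Hom, H2-DMb1 (-0.24, adjusted p = 0.16), Junb (-0.22, 0.27), Egr1 (-0.28, 0.061) and Ier2 (-0.17, 0.48) were not called.

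Homing and lineage genes were mixed. Among the homing receptors, the integrins Itgb1 (log2 difference 0.56) and Itgb7 (0.32) were higher, and Cxcr4 (-0.42) and Ccr6 (-0.25) lower. Cx3cr1 (-0.06) and Ccr2 (0.04), the genes of the series' genotypes, were not called. Of 16 B cell receptor and lineage genes, Ebf1 was lower (-0.36) and none was higher; Cd79a (0.03) was not called. Of 6 tested genes of age-associated and memory B cells, Fcrl5, Cd80 and Cd38 were higher. Of 7 marginal zone genes Mzb1 and Cd9 were higher and Cr2 lower, of 8 plasma cell genes Mzb1 was higher and Jchain lower, and of 6 transitional genes Vpreb3 was lower. Of 8 inhibitory receptors Cd72 and Btla were lower, and of 13 cytokine and Toll-like receptor genes Il5ra and Csf2rb were higher. Without mets Hom, 9 of the genes in this paragraph were not called, with adjusted p from 0.059 to 0.37: Itgb7 (0.26), Cxcr4 (-0.28), Ccr6 (-0.25), Ebf1 (-0.25), Cd38 (0.23), Jchain (-0.20), Cd72 (-0.28), Btla (-0.19) and Csf2rb (0.18); nor was Vpreb3. Limma called 0 of 11 clock and helix-loop-helix repressor genes, 0 of 12 interferon genes and 0 of 6 cell cycle genes. At an unadjusted p under 0.05 these lists had 0 genes, 1 higher and 3 lower, and 1 lower, against 1332 of all 10249.

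Markers of other cells were counted in positive cells too, at levels that varied between lists and samples. The summed T cell list lay between 0.23 and 0.80 per 10000 in positive cells and between 0.23 and 0.36 in the others, and none of its 6 tested genes was called; Cd4 stood at 0 in all 4 positive sums. The summed neutrophil list lay between 4.75 and 14.99 in positive and between 7.85 and 21.9 in other cells, highest in mets Hom in both. The monocyte list lay between 1.77 and 3.19 against 3.09 and 3.91, with Lyz2 lower (not called without mets Hom: -0.30, adjusted p = 0.064). The NK list lay at or below 0.16 in both classes, with Klrb1c and Ncr1 at 0 in positive cells, and the platelet list between 0.19 and 1.60 against 0.20 and 0.55, with none of 3 genes called. The red cell list varied between 0.64 and 7.40 against 1.06 and 18.0: all 4 tested genes were lower over all samples, while Hbb-bs was higher in mets Hom. Cells with at least 3 counts of chosen T cell, neutrophil, monocyte, platelet and red cell genes were then left out (111 of 230 positive and 1286 of 1907 other cells). Of the remaining cells' genes, 162 were higher and 250 lower. These held 124 of the 178 higher and 109 of the 143 lower genes of the full comparison.

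The antibody gates set part of the positive cells apart. The authors placed each cell in a B220-positive or B220-negative gate; B220 is a CD45 isoform that B-1 cells carry less of than follicular cells. In the B220-negative gate were 10 of 44 positive cells of naive Het (22.7%, 95% interval 11.5 to 37.8), 15 of 76 of naive Hom (19.7%, 11.5 to 30.5), 11 of 55 of mets Het (20%, 10.4 to 33.0) and 32 of 55 of mets Hom (58.2%, 44.1 to 71.3). Of the other cells 3.06%, 4.24%, 1.54% and 5.26% were in that gate. The share was higher in positive cells in 4 of 4 samples (exact p = 0.13, the smallest possible), and mets Hom was higher than the other 3 samples, with intervals that did not overlap. Among cells at or above the median depth the shares were 30.3%, 23.2%, 27.5% and 68.1% in positive cells and 3.24%, 3.74%, 2.43% and 7.89% in the others.

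The gate went with the gene counted. Over the 4 samples 22 of 29 cells with both genes (75.9%) were B220-negative, 40 of 135 with Bhlhe41 alone (29.6%), 6 of 66 with Zcwpw1 alone (9.09%) and 65 of 1907 other cells (3.41%). Of the 25 naive B220-negative positive cells 3 were in the authors' CD3 gate and 11 in the CD11b/Ly6C gate. Of the 43 from mets 2 were in the CD3 gate, 5 in the NK gate and 36 in the Ly6C-low gate. Of the 43 naive B220-negative other cells 1 was in the CD3 gate and 6 in the CD11b/Ly6C gate. Of the 22 such other cells from mets 8 were in the CD3 gate, 0 in the NK gate and 14 in the Ly6C-low gate. The summed T cell list stood at 0, 0.14, 2.69 and 0.44 per 10000 in the B220-negative positive cells of naive Het, naive Hom, mets Het and mets Hom, and at 0.30, 0.30, 0.29 and 0.19 in the B220-positive ones. In the 10 cells of the CD3 or NK gate it stood at 2.18 over all samples, from 11 counts in 2 cells, and in the other 58 at 0.42. In mets Het it stood at 3.09 in the cells of those gates and at 1.99 outside them. In naive Het it stood at 0 in both. NK genes had 1 count in the 68 B220-negative positive cells. The part of these cells in the results was not tested.

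Limma found B220-negative positive cells different from B220-positive ones at 399 of 6202 genes (6.43%), 130 higher (2.1%) and 269 lower (4.34%); this comparison was added after the gates had been seen. S100a6 stood at 33.8, 50.6, 41.8 and 45.4 per 10000 in the B220-negative cells of naive Het, naive Hom, mets Het and mets Hom, and at 2.31, 5.26, 7.79 and 17.3 in the B220-positive ones. The 2 gates did not overlap, and mets Hom was not the highest among B220-negative cells. Ighd stood at 1.20, 3.27, 3.59 and 1.71 against 7.93, 6.71, 13.2 and 12.1 (log2 difference -1.69, SE 0.16, adjusted p = 3.2e-22). Fcer2a stood at 0.8002, 0.952, 0.539 and 0.127 against 3.43, 2.14, 2.21 and 2.05 (log2 difference -1.12, SE 0.16, adjusted p = 1.1e-09), and Vpreb3 at 0.2001, 1.36, 0.539 and 0.064 against 5.21, 7.72, 5.67 and 3.44 (log2 difference -2.11, SE 0.16, adjusted p = 1.1e-31). The gates did not overlap for these 3 genes, but how many of all genes had no overlap was not counted. Of the called genes, 114 of the 130 higher and 236 of the 269 lower went the same way in all 4 samples. Of 15 follicular genes 10 were lower and 1 higher, and of 19 tested S100, annexin and actin-binding genes 13 were higher and 1 lower. The B220-negative cells were deeper, with a median of 10485.5 raw UMIs against 5548.5. Genes of other cells differed between the gates too. Of neutrophil genes, S100a8 differed by -0.90 (adjusted p = 1.9e-05), from 1.02 in naive Hom to -3.15 in mets Hom, S100a9 by -0.89 and Retnlg by -0.74. Of haemoglobin genes, Hba-a1 differed by 1.02 (adjusted p = 1.4e-07; 3.33 in naive Het), Hba-a2 by 0.87 and Hbb-bs by 0.62. The summed neutrophil list stood between 2.35 and 10.7 per 10000 in the B220-negative and between 5.38 and 33.5 in the B220-positive cells, and the red cell list between 0.14 and 28.6 against 0.76 and 1.49. Their part in the other differences was not tested.

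With only cells of the B220-positive gate compared, 20 genes were higher and 8 lower in Bhlhe41/Zcwpw1-positive cells. All 164 higher and 143 lower genes of the full comparison that could still be tested kept their sign, and 19 and 7 of them kept their call. The full comparison held these same B220-positive cells, so most signs were likely to be kept, and this is no separate test. S100a6 was higher by 1.59 and Plac8 by 0.83 (adjusted p = 1.7e-06), and Zbtb32 by 0.25 (adjusted p = 0.042), while Ighd (-0.30, adjusted p = 0.16) and Fcer2a (-0.31, adjusted p = 0.27) were no longer called. S100a6 also marked the 65 B220-negative cells without either gene, at 21.5, 10.0, 9.19 and 14.5 per 10000.

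The label B-1-like did not hold for all of the cells. Against the other cells of cluster 1, cells with Zcwpw1 alone had 0 genes called by limma in either direction (104 higher and 501 lower at an unadjusted p under 0.05), and of the 165 higher genes that could be tested 123 kept their sign, as did 126 of the 143 lower ones. These cells numbered only 11, 26, 19 and 10 in naive Het, naive Hom, mets Het and mets Hom. The 0 calls therefore do not show that they match the other cells of cluster 1. They were part of the full comparison too, so the kept signs are no separate test. Their S100a6 level was 6.56, 2.12, 4.69 and 2.65 per 10000 in naive Het, naive Hom, mets Het and mets Hom, against 9.40, 17.0, 12.1 and 28.1 with Bhlhe41 alone and 20.5, 48.5, 52.7 and 68.1 with both. Their Ighd level was 11.6, 8.55, 14.97 and 11.9, their Fcer2a level 4.69, 2.82, 3.35 and 3.096. For Fcer2a the levels with both genes were 0, 0.401, 0.285 and 0 from only 29 cells, and with Bhlhe41 alone 2.47, 1.55, 1.29 and 0.659. Cells with Bhlhe41 and no Zcwpw1 had 100 genes higher and 84 lower than the other cells.

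Tested directly, the 164 Bhlhe41-positive cells differed from the 66 with Zcwpw1 alone at 74 of 6202 genes (1.19%), 52 higher (0.838%) and 22 lower (0.355%). Plac8 was higher by 1.27 (SE 0.16, adjusted p = 1e-07) and Vim by 1.35, and Fcer2a (-1.003, SE 0.18), Ighd (-0.93, SE 0.16) and H2-Aa (-0.52, SE 0.09) were lower. The lambda constant gene Iglc2 was higher in each sample (0.63, adjusted p = 0.0018) and Iglc1 in 3 of 4 (0.84, adjusted p = 0.012), and Cd9 was higher by 0.64 (adjusted p = 0.017). Genes of other cells differed too. S100a8 differed by -1.304 (limma adjusted p = 0.0029), with -0.56, 0.09, -0.64 and -4.11 in naive Het, naive Hom, mets Het and mets Hom. S100a9 differed by -1.05, Retnlg by -0.85, Hba-a1 by 0.78 (limma adjusted p = 0.014) and Hba-a2 by 0.65. The part of these genes in the other differences was not tested. This comparison was added after the classes had been seen.

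The rule's threshold was a single count. The 89 cells with 1 count of Bhlhe41 and no Zcwpw1 had an S100a6 level of 14.98 per 10000, and the 46 with 2 or more had 20.3. The 59 cells with 1 count of Zcwpw1 and no Bhlhe41 had 2.37, the 7 with 2 or more 14.8, and the cells with neither 1.86. No positive cell had a hashtag share between 0.5 and 0.6, and 3 cells between 0.4 and 0.5 were left out.

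**Figure D4:**
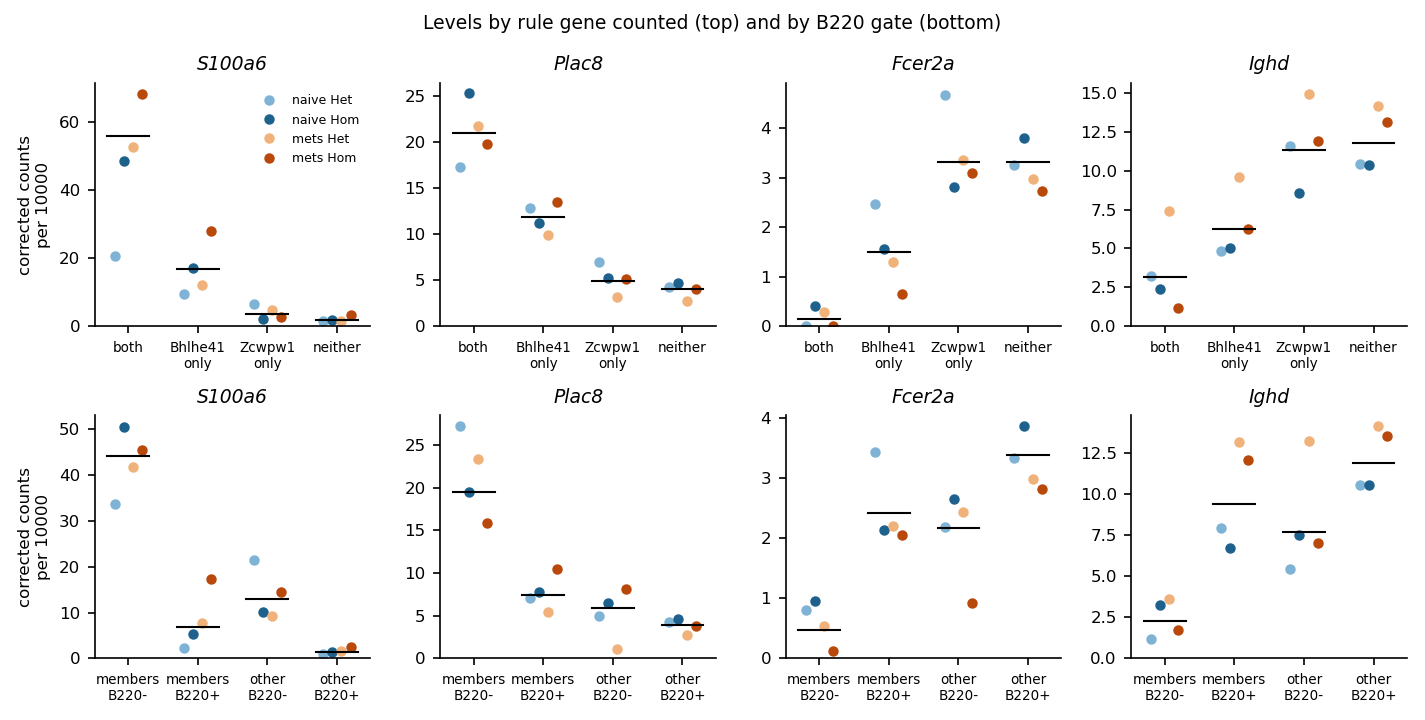
Levels of S100a6, Plac8, Fcer2a and Ighd, in corrected counts per 10000, by the rule gene counted in the cell (top) and by the authors' B220 gate (bottom). Points are the 4 hashed samples and bars the level over all 4; over all 4 samples cells with Zcwpw1 alone stood at 3.68 for S100a6 against 1.86 with neither gene and 55.8 with both, and among the 4 gate classes of the bottom panel the B220-negative positive cells were the highest for S100a6 and Plac8 over all 4 samples and the lowest for Fcer2a and Ighd.

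The other cells of cluster 1 are mixed, so the positive cells were also set against the 1238 of them with Fcer2a counted. Limma then called 215 genes higher and 153 lower of 9702 (3.79%; 2.22% higher, 1.58% lower), with Fcer2a itself left out because it chose the cells. Plac8 was higher by 1.48 (SE 0.09), Vim by 1.31 and Zbtb32 by 0.63, and Ighd (-0.80) and Cr2 (-0.62) were lower. The positive cells were not chosen by Fcer2a. Lower follicular genes such as Ighd and Cr2 can therefore come in part from that choice, and this was not tested. Iglc1 was higher by 0.72 (adjusted p = 2.3e-08), and Vpreb3 was not called (-0.29, adjusted p = 0.20).

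Conditions were compared within the positive cells as levels, since 1 sample stood for each and no test could be made. The 2 naive samples share a table, and so do the 2 mets samples. The naive and mets tables were normalised separately by the authors, and the values of the other cells of cluster 1 stand beside each ratio. Genes were counted at a ratio of at least 2 with at least 20 counts in the higher sample. That minimum was not scaled to the summed counts of a sample. These sums were 219004 in naive Het, 377773 in naive Hom, 263679 in mets Het and 264928 in mets Hom positive cells. A gene high in the larger sum passed at a lower level, so the numbers higher and lower are not on an equal footing. The sums of the other cells were larger, so their shares are not directly comparable either. The genes named below were chosen from those counted, or from the genes above, after their values were seen.

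Between Hom and Het, 141 genes were higher and 13 lower of 2812 in naive positive cells (5.01% and 0.462%), and 46 higher and 98 lower of 2041 in mets positive cells (2.25% and 4.8%). In the other cells the counts were 131 and 33 of 8601 (1.52% and 0.384%), and 44 and 138 of 7758 (0.567% and 1.78%). In mets, S100a6 was 2.27 times as high in Hom (95% counting interval 2.01 to 2.56; 1.95 in the other cells), Ahnak 2.67 times (1.87 to 3.86; 1.305), S100a4 2.47 times (1.65 to 3.77; 1.24) and Vim 2.23 times (1.84 to 2.71; 1.32). Vpreb3 was at 0.313 of its Het level (0.211 to 0.453; 1.33 in the other cells), Satb1 at 0.255 (0.114 to 0.521; 0.905), Fcer2a at 0.487 (0.286 to 0.810; 0.920) and Ighd at 0.531 (0.435 to 0.647; 0.929). Of the positive cells, 58.2% were B220-negative in mets Hom and 20% in mets Het. S100a6 was at 45.4 in mets Hom and 41.8 in mets Het within the B220-negative gate, and at 17.3 and 7.79 within the B220-positive gate. The part of the gate in these ratios was not tested.

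In naive positive cells the ratio of Hom to Het was 1.48 for S100a6 (1.26 to 1.75; 1.11 in the other cells), 1.86 for Ahnak (1.26 to 2.79; 1.31) and 3.05 for Lgals1 (1.74 to 5.71; 0.921). Ccr1, a chemokine receptor, was 5.10 times as high (2.03 to 16.5; 1.86 in the other cells) in naive and 3.76 times (1.77 to 8.91; 2.54) in mets. Vpreb3 was 1.60 times as high (1.25 to 2.06; 1.06 in the other cells), opposite to mets, and Fcer2a was at 0.673 (0.473 to 0.961; 1.16). Genes of other cells differed too: S100a8 of neutrophils was 3.36 times as high in mets Hom as in mets Het positive cells and 2.01 times in the other cells, and Ttr, the transthyretin gene of choroid plexus and liver, was at 0.405 and 0.772. Their part in the other ratios was not tested.

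**Figure D5:**
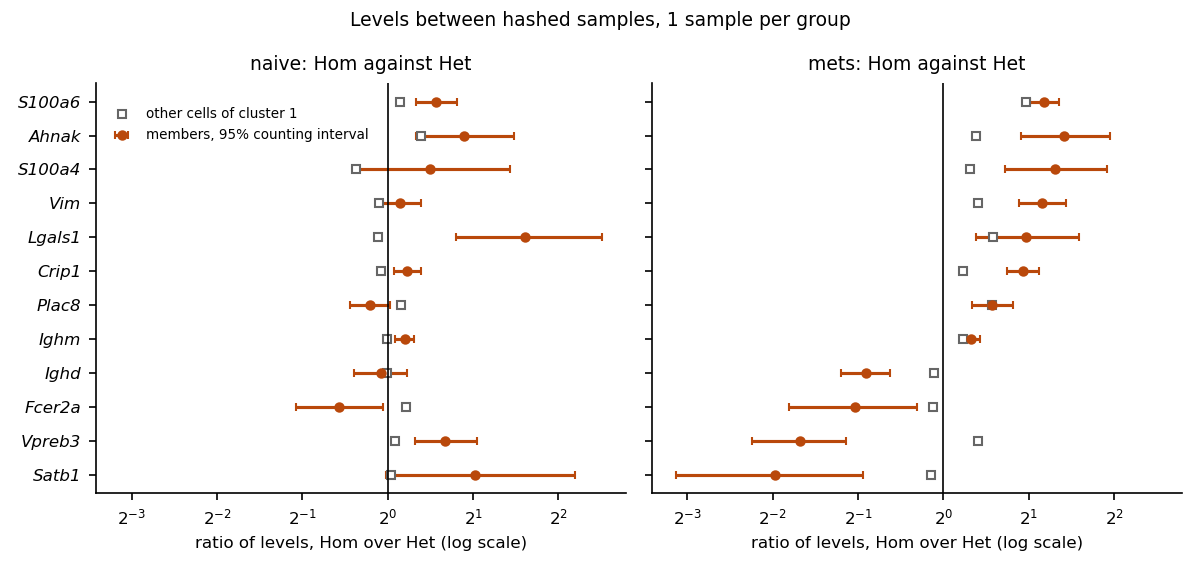
Ratio of summed levels, Hom over Het, on a log scale, in naive and in mets samples. Filled points with bars are Bhlhe41/Zcwpw1-positive cells with 95% counting intervals and open squares the other cells of cluster 1; Vpreb3 was at 1.60 in naive and 0.313 in mets positive cells, and each ratio compares 2 single samples.

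Between mets and naive, 92 genes were higher and 35 lower of 1967 in Het positive cells (4.68% and 1.78%), and 28 higher and 231 lower of 2846 in Hom (0.984% and 8.12%). In the other cells the counts were 132 and 96 of 7905 (1.67% and 1.21%) in Het and 77 and 218 of 8586 (0.897% and 2.54%) in Hom. In Hom, S100a6 was 2.41 times as high (2.17 to 2.69; 1.84 in the other cells), S100a4 3.18 times (2.16 to 4.77; 1.60) and Ms4a6c 6.06 times (2.75 to 15.2; 1.06). Vpreb3 was at 0.221 (0.153 to 0.312; 0.964), Cd24a at 0.325 (0.232 to 0.448; 0.757) and Cd72 at 0.298 (0.155 to 0.535; 0.871). Ptpn22, a phosphatase of antigen receptor signalling, was 3.63 times as high in Hom (2.18 to 6.24) and 3.08 times in Het (1.68 to 6.03), and in the other cells 3.17 and 3.78 times. The cold-inducible RNA-binding genes Cirbp and Rbm3 were likewise higher in both classes, at 3.12 and 2.24 times in Het positive cells and 2.95 and 2.44 times in the other cells. Ighm was at 1.01 in Het (0.926 to 1.10; 0.769 in the other cells) and 1.10 in Hom (1.03 to 1.17; 0.906). Genes of other cells differed here too: in Hom, Retnlg was 9.51 times as high (4.005 to 27.4; 2.38) and S100a8 2.84 times (2.17 to 3.72; 3.39), and in Het Ttr was 3.06 times as high (2.36 to 4.02; 1.19). Their part in the other ratios was not tested.

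Because Bhlhe41 binds the E-box CACGTG, the 250 bases before the start of genes were searched for it. The word is its own reverse complement, so both strands were read at once. Genes of a whole chromosome, called genes included, and genes without a listed promoter were left out of the search. Promoters came from RefSeq, build GRCm38.p6. The word stood in 10.3% of the 7979 tested genes with a promoter there, in 8 of 130 genes called higher (6.15%) and in 9 of 114 called lower (7.89%). The promoters of Bhlhe41 and of Ass1, the one among the 12 genes named as higher that held it, are shown 5′ to 3′ with the word in capitals. The Bhlhe41 stretch is chr6:145865421-145865670 on the minus strand, with the word starting 153 bases before the start, and the Ass1 stretch chr2:31470020-31470269 on the plus strand, with the word starting 36 bases before it. A match says only that these letters stand there.
Bhlhe41: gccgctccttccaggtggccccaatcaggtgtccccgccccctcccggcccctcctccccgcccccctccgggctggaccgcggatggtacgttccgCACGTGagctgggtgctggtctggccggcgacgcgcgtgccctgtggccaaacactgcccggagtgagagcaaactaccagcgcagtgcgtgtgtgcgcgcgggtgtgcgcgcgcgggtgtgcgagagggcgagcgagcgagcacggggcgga
Ass1: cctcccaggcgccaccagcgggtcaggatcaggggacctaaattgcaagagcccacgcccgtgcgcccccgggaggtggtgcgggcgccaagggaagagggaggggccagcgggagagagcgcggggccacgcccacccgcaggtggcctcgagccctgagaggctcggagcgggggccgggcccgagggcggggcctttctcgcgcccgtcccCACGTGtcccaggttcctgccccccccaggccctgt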

How the data were processed

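The authors deposited, per the file headers and values, a table for each tissue and state with the natural log of 1 plus a depth-corrected count per gene and cell; exp(value) minus 1 was whole within 1.2e-11. Raw UMI counts per cell, clusters, hashtag calls and antibody gates came from the deposited cell tables, whose column names are those of SCTransform. Cell Ranger 3.1 and mm10 are named in the submitters' processing notes. Cells were kept whose barcode stood in 1 cell table and whose hashtag counts came for at least 0.5 from the hashtags of that table's own samples.

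Corrected counts were summed per hashed sample and class, scaled to 10000, given a pseudocount of 1 and taken to log2. Genes with at least 20 counts over the 8 sums were fitted in limma 3.58.1 (lmFit and eBayes with trend, R 4.3.3) with the hashed sample as a block, since both classes of a sample share its blood, and p-values were adjusted by Benjamini-Hochberg over all genes (threshold 0.05). Bhlhe41 and Zcwpw1 were left out of the calls. The 12 genes named in each direction were those whose 95% interval lay farthest from 0 among genes called with 1 sign in all 4 samples, leaving out antigen receptor, globin, mitochondrial and ribosomal genes and those whose symbols are Gm or Rik codes; the genes of the lists are named besides. Intervals of ratios and shares are exact and cover counting error only. The scripts were tested on simulated data. Python 3.11.15 with scipy 1.17.1 was used for the rest. The members, gene lists and alternatives were chosen with earlier results of these data known. Alternatives were the rule gene, the cells kept, depth, pseudocount, filter, block and each sample left out. The brain table was used only to find shared barcodes. Some genes that the rule or lists name are not reported here.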

Additional observations from a re-analysis of the deposited data

Results flagged for a closer look

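Some differences between Hom and Het ran in opposite directions in naive and mets samples. They were not tested, since each group was 1 sample. The positive share of cluster 1 was lower by 0.67 percentage points in naive Hom than in naive Het (-0.67) and higher by 7.54 points in mets Hom than in mets Het. The B220-negative share of positive cells differed by -2.99 points in naive and by 38.2 points in mets. Plac8 in positive cells differed by -0.19 on the log2 scale in naive and 0.52 in mets. Vpreb3 in positive cells differed by 0.56 in naive and -1.20 in mets.

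Bhlhe41 was also counted outside the B cell cluster. In cluster 5, which holds few cells, it was counted in 8 of 14 naive cells (57.1%, exact 95% interval 28.9 to 82.3) and in 8 of 14 mets cells (57.1%), at median depths of 15988 and 12251.5 raw UMIs, with Zcwpw1 in 0 of 14 cells in each, which allows a share of cells with a UMI of it of up to 23.2% and does not limit the share expressing it. C1qa, a complement gene of macrophages and microglia, stood at 76.8 and 62.5 per 10000 there.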

How the results depend on the processing

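The hashed sample was a block in the fits, because both classes of a sample come from the same blood; without this replicate block 56 genes were higher and 22 lower against the other cells, 109 and 56 against Fcer2a-positive cells, 84 higher between B220 gates, and 17 higher and 2 lower between Bhlhe41-positive and Zcwpw1-alone cells. Leaving out 1 sample at a time gave 101 to 160 higher and 61 to 128 lower genes against the other cells, 145 to 174 and 94 to 145 against Fcer2a-positive cells, 80 to 116 and 142 to 234 between gates, and 28 to 39 and 8 to 19 between Bhlhe41-positive and Zcwpw1-alone cells. The lowest counts against the other cells came without mets Hom; Vpreb3, Atxn1, Bach2, Zfp318, Jchain, Cd38, Itgb7, Ccr6, Cxcr4, H2-DMb1, S100a10, Crip2, Lsp1, Tmsb10, Junb, Egr1, Ier2, Ebf1, Cd72, Btla, Csf2rb, Lyz2 and Igha were then not called.

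Against the other cells and against Fcer2a-positive cells respectively, Zcwpw1 above 0 as the only rule gave 20 higher and 8 lower, and 45 and 33. Zcwpw1 without Bhlhe41 gave 0 and 0, and 1 and 2, the B220-positive gate 20 and 8, and 40 and 33, and no filter on low genes 1 and 0, and 16 and 6. All deposited cells gave 218 and 263 lower genes, cells at or above the median depth 244 and 280, and cells with under 3 counts of marker genes of other types 250 and 251. Means of the log values gave 280 higher and 78 lower, and 331 higher. Bhlhe41 without Zcwpw1 gave 100 and 84 against the other cells, and Bhlhe41 above 0 gave 250 lower against Fcer2a-positive cells. A pseudocount of 0.2 left 12 lower genes between Bhlhe41-positive and Zcwpw1-alone cells.

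With Zcwpw1 alone the sign turned for Vim (-0.034), S100a9 (0.0076), Fcer2a (0.088), Ighm (-0.036), Cd9 (-0.11), Mzb1 (-0.076), H2-Aa (0.028), H2-Ab1 (0.039), H2-DMb1 (0.061), S100a10 (-0.22), Lsp1 (-0.15), Junb (0.11), Ier2 (0.078) and S100a8 (0.24), and with means of log values for Jchain (0.012), Hbb-bs (0.0059), Hba-a1 (0.023) and Igha (0.020).

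In the order naive Het, naive Hom, mets Het and mets Hom, the positive share of cluster 1 was 3.21%, 3.84%, 4.54% and 7.48% by Zcwpw1. By Bhlhe41 it was 7.57%, 6.20%, 6.28% and 14.0% in the same order. After thinning to 3000 counts it was 7.11%, 6.32%, 7.33% and 13.1%. Between naive Hom and Het, all deposited cells gave 252 higher genes, Bhlhe41-positive cells 90 and a pseudocount of 0.2 33 higher and 6 lower. Between mets Hom and Het, Bhlhe41-positive cells gave 34 lower and the pseudocount 27 higher and 36 lower. Between Het mets and naive, all deposited cells gave 156 higher and 17 lower, Bhlhe41-positive cells 38 higher and the pseudocount 41 and 23. Between Hom mets and naive, all deposited cells gave 52 higher and the pseudocount 17 and 80. At 5 counts, 0 positive cells had a kappa V gene. The cause of these changes was not tested, beyond fewer cells or genes where the alternative itself leaves them out. Depth limits the single-cell rule: a cell at 0 counts may still express either gene.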
